A study of Canis lupus familiaris with 6 samples.

Results

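The left ventricle of 6 dogs was examined for 9 complement genes, namely C6 and C7 of the terminal pathway, C3, the C1q chain genes C1QA, C1QB and C1QC, the protease gene C1S, the factor D gene CFD and the clusterin gene CLU. A probe set, the group of oligonucleotides that reads 1 transcript on the Affymetrix canine array, was taken where the array annotation gave exactly 1 gene symbol and that symbol was one of the 9. This gave 22 probe sets of the 42924 on the array, all used without a filter. The genes were chosen with their difference between affected and control hearts known, so their own differences are given as a description, with no test.

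Total RNA of frozen left ventricle was hybridised to 1 array per dog. Control 1 was a male Labrador retriever aged 12 years, control 2 a female St. Bernard aged 10 years and control 3 a male Greater Swiss Mountain dog aged 4 years. All 3 affected animals were Great Danes with dilated cardiomyopathy (DCM), of which affected 1 was a female aged 9 years and affected 2 and affected 3 were males aged 7 years. Breed and disease went together, since no control was a Great Dane, and cannot be told apart. Each deposited value is a difference, on the log2 scale, from the median of its probe set over the 6 arrays, so a value of 0 is that median, 1 unit is a doubling, and no level of expression can be read or compared between genes.

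Complement is a cascade of plasma proteins that tags and lyses cells. C1q binds antibody or damaged surfaces and starts the classical pathway through the proteases C1r and C1s, all routes meet at the cleavage of C3, factor D serves the alternative pathway, and C5 to C9 assemble the terminal membrane attack complex, which clusterin and vitronectin restrain. Much of the circulating supply comes from the liver, while C1q is made largely by macrophages, factor D (adipsin) by fat cells, and several components by fibroblasts.

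C6 separated the groups by a wide margin, and C7, its partner in the terminal complex, did not. As the mean of its probe sets C6 lay at -3.03 ± 1.66 in the controls and 2.40 ± 0.98 in the affected hearts (SD, n = 3 each), a difference of 5.42 on the log2 scale, or 42.9-fold, the largest difference of all 15115 genes with a symbol of their own. C3 was 2.02 higher in affected hearts and the mean of the 3 C1q genes 0.78 higher, with group values that overlapped. All 22 probe sets had a difference above 0, where 33% of all probe sets on the array did. In 4 of the 22, the 3 of C6 and the 1 of CFD, every affected value lay above every control value, which was so in 5.37% of all probe sets. As the genes were picked with this contrast in view, nothing is read from these shares. In tissue RNA, fewer cells of a type and less RNA per cell cannot be told apart.

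**Figure D1:**
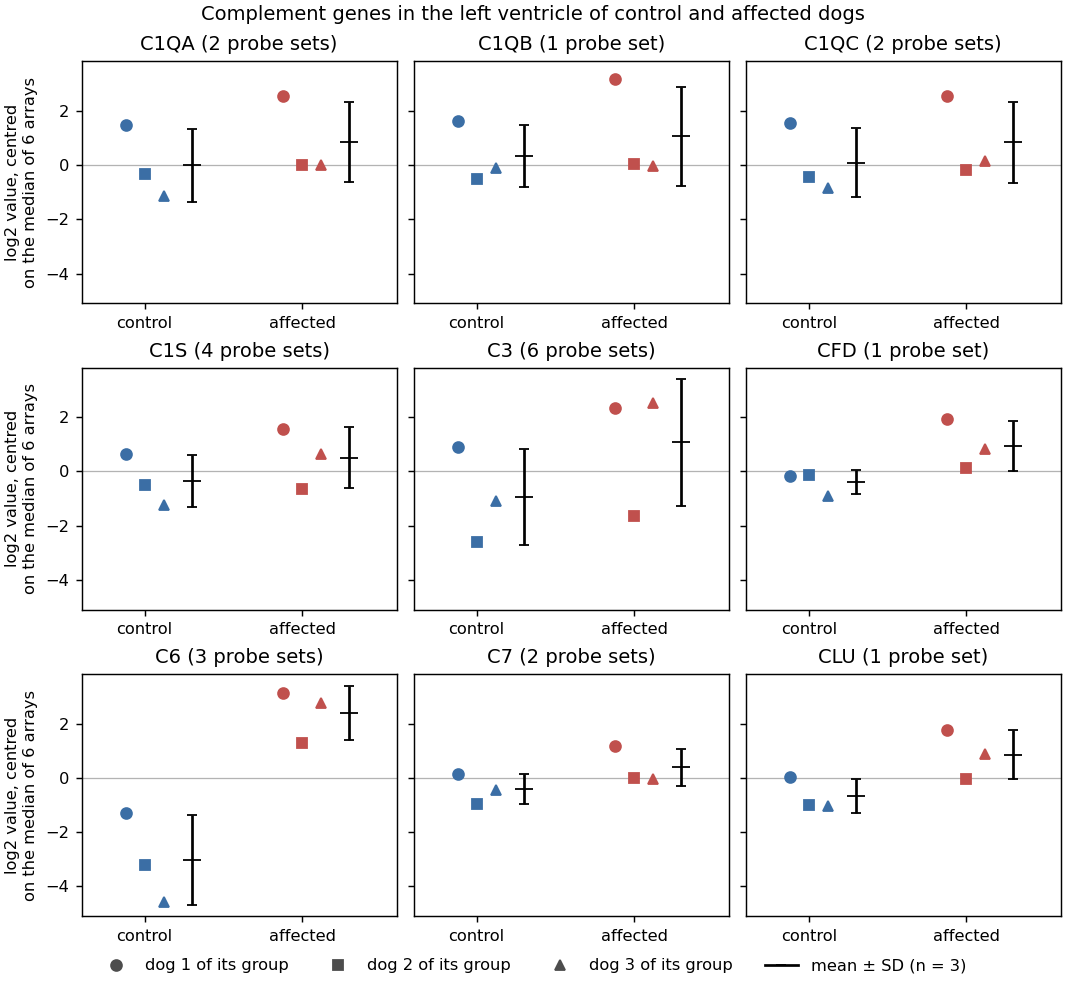
Each panel plots the log2 value of 1 gene (mean of its probe sets, centred on the median of the 6 arrays) for the control and affected dogs, with the marker shape giving the dog's number in its group and the bar the mean ± SD (n = 3). The affected dogs sit above 1 and the controls below -1 for C6, while C3 and the C1q genes are spread over both sides of 0 in both groups.

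C6 joins the complex of C5b, to which C7, C8 and C9 then bind. Its first probe set read -1.46, -3.0 and -2.78 on control 1, control 2 and control 3, and 3.22, 1.46 and 2.97 on affected 1, affected 2 and affected 3. The second read -1.24, -3.28 and -5.89 on the controls and 3.10, 1.24 and 2.73 on the affected arrays, and the third -1.13, -3.38 and -5.08 against 3.09, 1.13 and 2.62. In all 3, control 1 was the highest control and affected 2 the lowest affected heart, and the gap between these dogs was over 2 units. The probe sets differed on control 3, which lay close to control 2 in the first and well below it in the others. Their differences between the groups were 4.96 (SE 0.64), 5.83 (SE 1.29) and 5.48 (SE 1.14), with the moderated standard error (SE) of limma. With any 1 dog left out, the difference of the gene mean ran from 4.64 without control 3 to 6.30 without control 1. Affected 2 alone stood 4.31 above the control mean.

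C7 inserts the growing complex into the membrane. In the RefSeq gene order of the dog assembly UU_Cfam_GSD_1.0 it lies next to C6 with 1 protein-coding gene, MROH2B, between them. The larger of its differences came from the second probe set, which read 0.30, -1.14 and -0.95 on the controls and 2.09, -0.02 and 0.02 on the affected arrays. That difference was 1.29 (SE 0.73), and 0.60 without affected 1, the single array above the controls. The other C7 probe set read -0.02, -0.79 and 0.06 on the controls and 0.29, 0.02 and -0.09 on the affected arrays, a difference of 0.33 (SE 0.26). As a mean of both, C7 was 0.81 higher in affected hearts (-0.42 ± 0.55 against 0.39 ± 0.70, SD, n = 3 each), with overlapping groups. Within each array C6 minus C7 was -1.42, -2.26 and -4.14 in the controls and 1.95, 1.28 and 2.81 in the affected hearts, so, relative to its own median, C6 was below C7 in every control and above it in every affected dog.

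Genes around C6 were looked up after its values had been seen. MROH2B read 0.08, 0.01 and 0.11 on the controls and -0.03, -0.02 and -0.01 on the affected arrays, with a difference of -0.09. On the other side of C6, PLCXD3 differed by 0.07 and OXCT1, the ketone body enzyme of mitochondria, by -0.44. C9, another terminal component, with 8 protein-coding genes between it and C6, differed by -0.22, and DAB2, an endocytic adaptor, by 0.92. None of these neighbours differed by as much as 1 unit.

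C3, the protein at which the pathways converge, varied more within each group than any other of the 9 genes, by the SD of the gene means. The mean of its 6 probe sets was 0.90, -2.61 and -1.10 on the controls and 2.34, -1.62 and 2.53 on the affected arrays. Affected 1 and affected 3 lay above every control, while affected 2 lay below control 1 and control 3. Single probe sets departed from this order in the low dogs. In one of them control 3, at -2.30, was the lowest array and affected 2, at -1.09, lay above it, and in another affected 2, at -2.48, lay below all controls. The group means were -0.94 ± 1.76 and 1.08 ± 2.35 (SD, n = 3 each), and the difference of 2.02 was smaller than the SD of the affected hearts. By probe set it ran from 1.35 to 2.38. It was 3.37 without affected 2, 1.18 without control 2 and 1.33 after quantile normalization, and affected 2 alone differed from the control mean by -0.69.

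The C1q genes encode the 3 chains of one recognition protein and sit side by side in the RefSeq order, with C1QC between C1QA and C1QB. They marked 2 dogs rather than a group. C1QA, as the mean of 2 probe sets, read 1.48, -0.35 and -1.16 on the controls and 2.55, 0.00 and 0.00 on the affected arrays. C1QB read 1.64, -0.53 and -0.11 against 3.16, 0.05 and -0.05. C1QC read 1.54, -0.44 and -0.84 against 2.55, -0.19 and 0.16. Affected 1 was the highest array for all 3 genes and control 1 the next, ahead of the other affected dogs. The differences were 0.86, 0.72 and 0.75, each smaller than the SD within either group. The mean of the 3 genes was 0.14 ± 1.23 in the controls and 0.92 ± 1.59 in the affected hearts (SD, n = 3 each). Its difference of 0.78 turned to -0.14 without affected 1, was 1.49 without control 1, and was 0.45 after quantile normalization.

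C1S encodes the protease that C1r activates. The mean of its 4 probe sets was 0.66, -0.50 and -1.23 on the controls and 1.56, -0.65 and 0.63 on the affected arrays, a difference of 0.87, or 0.34 without affected 1. Its probe sets differed between 0.40 and 1.30, and the smallest of these was -0.01 after quantile normalization. C1R, its neighbour in the gene order and no member of the 9, read 0.67, -1.12 and -1.95 on the controls and 1.57, -0.48 and 0.65 on the affected arrays, so both proteases of the C1 complex had the same highest dog, affected 1, and the same lowest, control 3. The C1R difference was 1.38, with limma adjusted p of 0.296 and 0.35 in its 2 probe sets.

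Factor D cleaves factor B and so arms the alternative pathway. The 1 CFD probe set read -0.17, -0.11 and -0.91 on the controls and 1.94, 0.11 and 0.82 on the affected arrays. The groups did not overlap, but affected 2 exceeded control 2 by little. The means were -0.40 ± 0.44 and 0.96 ± 0.92 (SD, n = 3 each), 1.35 apart (SE 0.52), and 0.86 apart without affected 1.

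Clusterin keeps the terminal complex out of membranes and is also a secreted chaperone of stressed heart muscle. Its 1 probe set read 0.05, -1.0 and -1.05 on the controls and 1.75, -0.05 and 0.88 on the affected arrays. Here affected 2 fell just below control 1, so the groups overlapped. The means were -0.67 ± 0.62 and 0.86 ± 0.90 (SD, n = 3 each), 1.53 apart (SE 0.56), and 1.08 apart without affected 1.

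The comparison of the terminal components with C1q and C3 was made inside each array, which removes any shift common to all genes of a dog. The mean of C6 and C7 minus the C1q mean was -2.12, -1.65 and -1.81 in the controls and -0.59, 0.69 and 1.34 in the affected hearts. The groups were 2.34 apart without overlap, and between 1.91 and 2.87 apart with any 1 dog left out. Taken singly, C6 minus C1q was -2.83, -2.78 and -3.88 in the controls and 0.38, 1.32 and 2.74 in the affected hearts, which is 4.64 apart. C7 minus C1q was -1.41, -0.52 and 0.26 against -1.57, 0.05 and -0.07. The C7 difference relative to C1q was thus 0.03, and ran from -0.40 without control 1 to 0.55 without affected 1, with the sign turning to -0.20 with age as a term. The separation of the terminal pair from C1q was therefore carried by C6, a gene chosen with this contrast known, so no test is given.

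**Figure D2:**
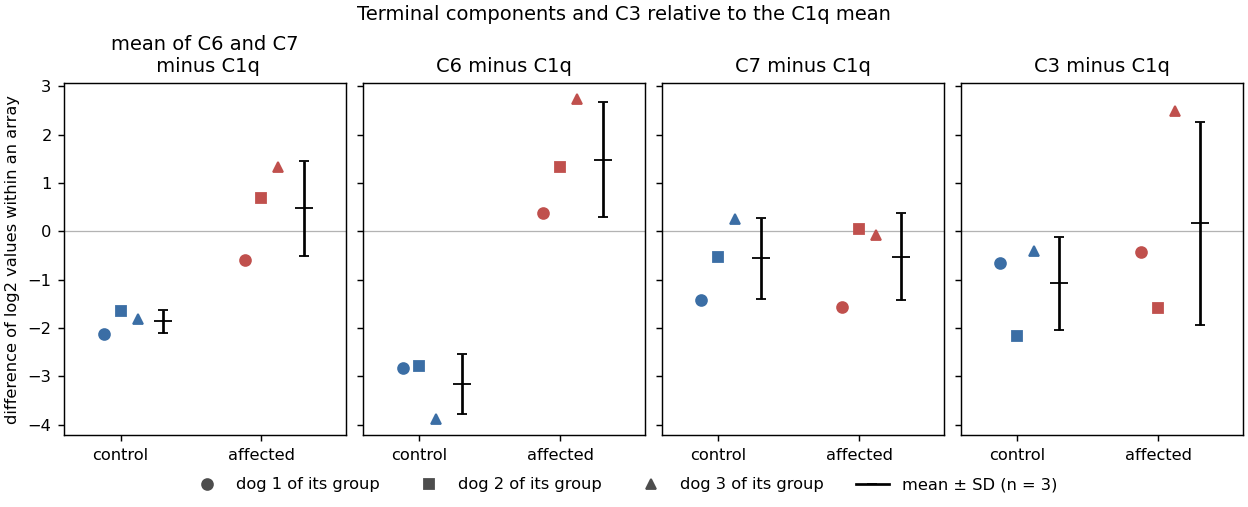
Each panel plots, for the control and affected dogs, the difference of log2 values within an array between the named gene or pair and the mean of C1QA, C1QB and C1QC, with the mean ± SD (n = 3). C6 minus C1q lies below -2.5 in all controls and above 0 in all affected dogs, whereas C7 minus C1q and C3 minus C1q overlap.

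C3 minus C1q was -0.65, -2.17 and -0.40 in the controls and -0.42, -1.58 and 2.49 in the affected hearts. Affected 3 held a high C3 value with a C1q value near the median, and without it the difference of 1.24 was 0.07. C6 minus C3 was -2.18, -0.61 and -3.49 against 0.80, 2.90 and 0.24, again without overlap and 3.41 apart. Affected 2, the dog whose C3 was low, had the largest excess of C6 over C3.

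Of the 40 other genes in a list of complement components, regulators and receptors, 26 were named on the array, by 64 probe sets. None of these 64 passed the adjusted threshold of 0.05 in limma (lowest adjusted p = 0.296), where 0.00233% of all probe sets did. At an unadjusted limma p under 0.05, 1 was higher and 8 were lower, against 4.53% higher and 6.32% lower over the array. These counts moved with the scaling and the dogs. They were 7 higher and 0 lower after subtracting the actin and GAPDH controls, 1 and 3 after median centring, 3 and 17 with age as a term, 1 and 19 without control 2, and 1 and 1 without affected 1. The median difference of the 26 genes was -0.07, with 9 above 0. Over all 15115 genes the median was -0.07 too. The 26 genes are those left after the 9 selected genes, with a median of 0.87, were set aside. The match is therefore no result about complement as a whole.

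Among the classical initiators the extremes were C1R at 1.38 and C1RL, a C1r-like protease, at -0.09. The lectin pathway proteins ran from -0.01 for the collectin COLEC11 to -0.14 for the protease MASP1. Properdin (CFP), which stabilises the alternative convertase, differed by -0.02. Of the membrane-bound regulators the macrophage receptor VSIG4 differed by 0.72, a mean of 1.44 and -0.01 in its 2 probe sets that was 0.13 without affected 1. CD59, which blocks C9, differed by -0.22 and turned to 0.07 without control 1. Among the receptors the values ran from 0.19 for the integrin chain ITGAM to -0.30 for the C5a receptor C5AR1. None of these genes had a probe set past the adjusted limma threshold.

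The other 5 genes of the terminal pathway gave no values like those of C6. C5 was the nearest to 0, at -0.14, and C8A the lowest, at -0.36. C5 read 0.08, 0.02 and 0.18 on the controls and -0.04, -0.07 and -0.02 on the affected arrays, and C9 read 0.15, 0.04 and 0.22 against -0.04, -0.12 and -0.09. The array's tag controls, which match no dog transcript, read 0.06, 0.01 and 0.13 against -0.03, -0.03 and -0.01. C5 and C9 had the same order of control arrays as these tags and the same sign in each group. C8A had another order, at 0.17, 0.19 and 0.42 on the controls and -0.16, -0.10 and -0.04 on the affected arrays. Of the 8 other probe sets that were lower at the unadjusted p, 7 had a range under 1 unit over the 6 arrays, and 6 belonged to the terminal genes. The exception in range, at 1.48, was a C8A probe set. It read 0.09, 0.85 and 0.44 on the controls and -0.63, -0.09 and -0.09 on the affected arrays, a difference of -0.73. All affected values lay below all controls in 33 of the 64, and in 46.9% of all probe sets.

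Of the other inhibitors in plasma that were measured, SERPING1 had the largest difference. SERPING1, the C1 inhibitor, read 0.29, -0.82 and -0.44 on the controls and 1.00, -0.39 and 0.52 on the affected arrays, a difference of 0.70, with 5 probe sets between 0.55 and 0.83 (limma adjusted p from 0.296 to 0.508). Its order of dogs matched that of C1S at the top, where affected 1 was highest. Vitronectin (VTN), named after its values were seen, held the 1 probe set that was higher at an unadjusted limma p under 0.05. This read -0.66, -0.17 and -0.32 on the controls and 0.77, 0.17 and 0.35 on the affected arrays, a difference of 0.82 (limma adjusted p = 0.296) without overlap. The other VTN probe sets differed by 0.37, 0.02 and -0.19, and the mean of all VTN probe sets by 0.25, near CFI at 0.24. At the other end of this class was C4BPB, a chain of the C4b-binding protein, at -0.18.

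**Figure D3:**
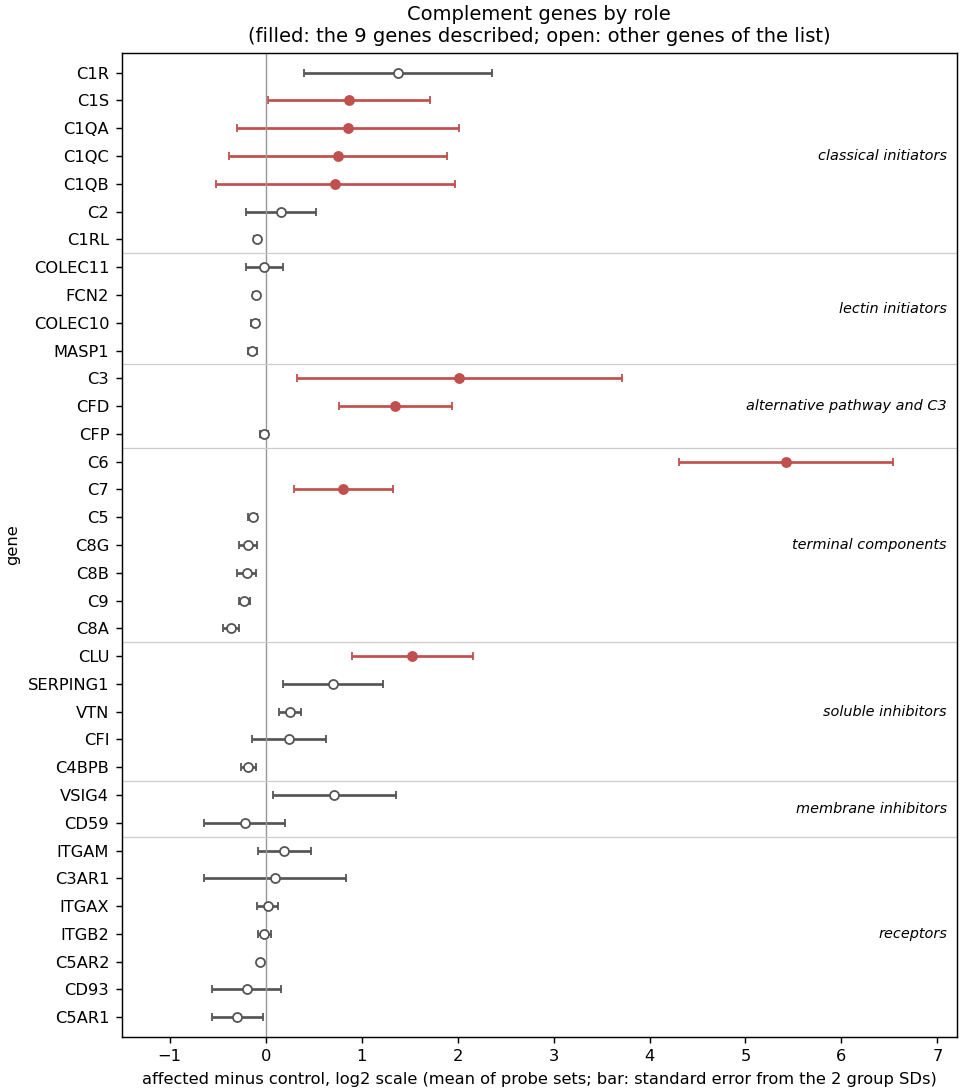
Points give the difference affected minus control on the log2 scale for each complement gene (mean of its probe sets), ordered by role, with a bar of 1 standard error from the SDs of both groups. C6 lies at 5.42, the other 8 selected genes (filled) between 0.72 and 2.02, and the other 5 terminal genes (open) between -0.36 and -0.14.

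The order of the dogs was set beside markers of the cells that could supply these transcripts. The 14 macrophage and monocyte markers, none of them a complement gene, had a mean of 0.69, -0.35 and -0.52 on the controls and 1.5, -0.15 and 0.11 on the affected arrays. The C1q mean was 1.55, -0.44 and -0.70 against 2.75, -0.05 and 0.04, with all 6 dogs in the same order. Below affected 1 and control 1, this order did not hold in each C1q gene. C1QB put affected 2 above affected 3 (0.05 against -0.05) and control 3 above control 2 (-0.11 against -0.53). C1QA put affected 2 just above affected 3. The marker genes with the largest differences were LYZ (lysozyme) at 1.10, CD68 at 1.02, LAPTM5 at 0.96 and AIF1 at 0.96. Without affected 1, AIF1 turned to -0.33 and CD68 was 0.36, and without control 3, LYZ was 0.54 and LAPTM5 0.45. The markers below 0 were MARCO at -0.20, FCER1G at -0.10 and SPI1 at -0.07. In all 11 of 14 were above 0, and the list did not differ between the groups beyond the spread (0.55, exact permutation test, two-sided, p = 0.5, adjusted p = 0.833 over 10 lists, with 0.1 the smallest p that 3 against 3 dogs allow). Its difference was 0.04 without affected 1 and 0.92 without control 1. The part of macrophage RNA in the C1q values was not tested.

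Fibroblast markers, 12 of 12 measured, averaged -0.15, -0.03 and -1.26 on the controls and 0.70, -0.07 and 0.68 on the affected arrays, and 9 were above 0. FAP, a protease of activated fibroblasts, differed by 2.08, and the matrix genes LUM, COL1A1 and COL1A2 by 1.76, 1.75 and 1.67. Those below 0 were PDGFRA at -0.69, with control 1 alone at 2.03, TCF21 at -0.18 and MFAP5 at -0.06. The list differed by 0.92 (exact permutation p = 0.2, adjusted p = 0.4), or 0.53 without control 3. Control 3 was lowest and affected 1 highest, as for C6. The list mean held affected 2 just below control 2, where C6 was higher in affected 2 by a wide margin. Single markers differed in this. In FAP, LUM, COL1A1, COL1A2, COL3A1, FBLN1 and DCN every affected value lay above every control, but by a smaller margin than in C6. Affected 2, the lowest affected dog, read 0.01 against -0.01 in control 2 for LUM and 0.03 against -0.03 for FAP. The widest of these margins was that of COL1A1, at 0.13 against -0.28. In C6, affected 2 read 1.28 against -1.28 in control 1, the highest control. The groups overlapped in PDGFRA, TCF21, MFAP5, DDR2 and DPT. Such a separation was seen in 5.37% of all probe sets on the array. Adipocyte markers, 7 of 8 measured, averaged 0.11, -0.22 and -0.20 on the controls and 1.30, -0.20 and -0.51 on the affected arrays (difference 0.30, exact permutation p = 0.8, adjusted p = 0.889), and 3 were above 0. On affected 1, the dog with the highest CFD, the fat droplet gene CIDEC read 4.00, ADIPOQ (adiponectin) 2.5, FABP4 1.5 and LEP 1.06. The other markers lay near 0 on that array, with PPARG, the transcription factor of fat cells, at 0.04 and PLIN1 and LPL both at -0.01. On affected 3, whose CFD was 0.82, CIDEC, ADIPOQ and FABP4 read -0.07, -1.56 and -2.04. PPARG differed by -0.14.

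Hepatocyte markers, 6 of 8 measured, had a list mean between -0.04 and 0.23 on every array, which was 0.11 lower in affected hearts (exact permutation p = 0.2, adjusted p = 0.4). The source of the C6 transcripts was not tested. Of the 6 genes, APOA1 was above 0 in difference, at 0.43, with every affected value above every control, and the other 5 were below 0. In ALB, AHSG, TTR and FGB every affected value lay below every control, which was so in 46.9% of all probe sets. Cardiomyocyte markers, 10 of 10 measured, had a list mean between -0.13 and 0.14, which differed by 0.12 (exact permutation p = 0.2, adjusted p = 0.4). Since every probe set is centred, the values cannot show whether a marker was absent or abundant, and the tissue label could not be checked by level.

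**Figure D4:**
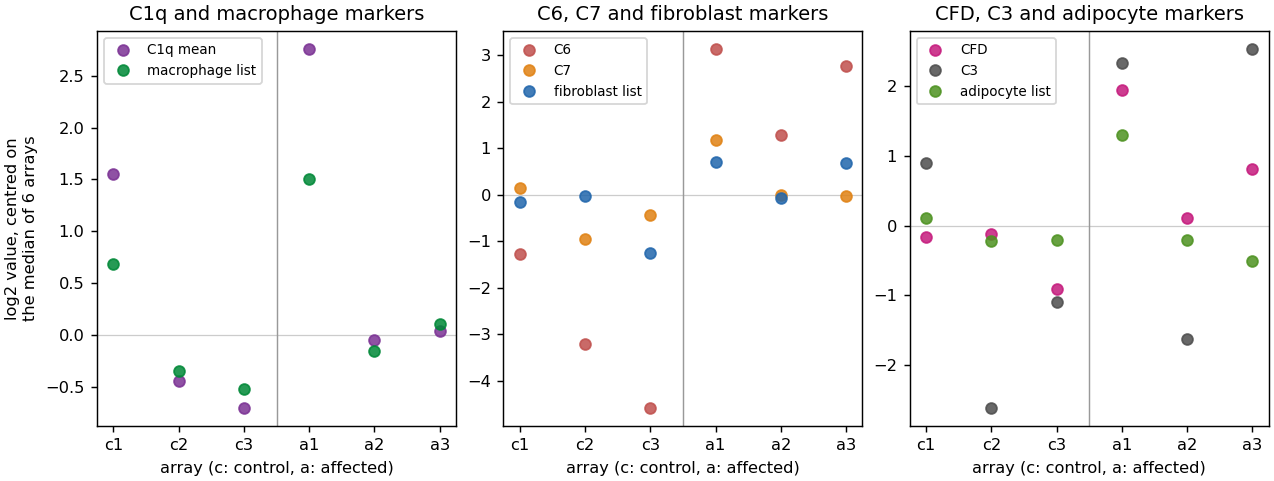
Values per array (c, control; a, affected) of complement genes and of the mean of a marker list, on the centred log2 scale. The C1q mean and the macrophage list put the 6 dogs in one order, C6 separates the groups while the fibroblast list overlaps, and the adipocyte list is high on affected 1 alone.

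Affected 1 was the highest array in 18 of the 22 probe sets and affected 3 in the other 4, all of C3. The spiked bacterial control transcripts also stood higher on affected 3, at 1.53, and affected 1, at 0.25, than on the other arrays, which lay between -0.18 and -0.01. The actin 3′ minus 5′ control difference, which is higher where RNA is more degraded, read 0.84 on affected 3 and 0.25 on affected 1. It read -0.13 on affected 2, while control 1, control 2 and control 3 gave 0.05, 0.16 and -0.23. The same measure for GAPDH was highest on control 2, at 0.30, and affected 2, at 0.26. The part of these in the results was not tested. For affected 2 alone, the differences from the control mean were 4.31 for C6, 0.62 for CLU, 0.51 for CFD, 0.42 for C7, 0.01 for C1QA, -0.28 for C1QB and C1QC, -0.30 for C1S and -0.69 for C3. In this dog 4 of the other 8 genes were thus below the control mean. These values rest on 1 dog.

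Genes with a profile near that of C6 were ranked by the mean absolute difference of their 6 array values from those of C6, over the 6 dogs and with no test. CILP, a cartilage matrix protein, was nearest, at 0.98, with values of -0.80, -1.66 and -2.15 on the controls and 3.01, 0.80 and 1.98 on the affected arrays. THBS4 (thrombospondin 4) followed at 1.01, LOC489640 at 1.06, IGSF1 at 1.09 and the Z-disc gene MYOT at 1.19. Their differences between the groups ran from 3.04 to 4.44. The measure is not scaled, and C6 ranged over 7.72 units against 3.46 for the C1q mean, so these distances cannot be compared between them. The genes nearest to the C1q mean lay at 0.26 to 0.32 from it. They were LCP1, the plastin of leukocytes, MGST1, a membrane glutathione transferase, PLBD1, and the macrophage receptors MRC1 (mannose receptor) and MSR1 (scavenger receptor). MSR1 read 2.21, -0.11 and 0.01 on the controls and 2.81, -0.15 and -0.01 on the affected arrays, again with control 1 and affected 1 far above the other 4 dogs.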

How the data were processed

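Expression was measured in 6 left ventricles, 3 control and 3 affected, which the labels call biological replicates. The deposited values were taken as log2, from the tools named in the submitters' processing notes (GCRMA and MAS5, without role or version) and from their range. The authors' table is centred: the median of each of its 43035 probe sets over the 6 arrays is 0 (largest absolute median 5e-07), so levels are unknown. The array number, 3 per group, limits precision. The genome build is not given in the sources used here.

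Without the 111 control probe sets, 42924 remained. Of these, 29254 had 1 gene symbol, for 15115 genes, and 439 had several. A gene's value is the mean of its probe sets. No filter was applied. All probe sets were fitted with limma 3.58.1 in R 4.3.3 (lmFit, eBayes without trend, group as the factor, 4 residual and 1.13 prior degrees of freedom), and p-values were adjusted by Benjamini and Hochberg over all 42924. Marker lists were compared by exact permutation of the 6 arrays.

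The genes, lists and alternatives were chosen with earlier results of these data known. Named genes were the 9, the highest and lowest other complement gene of each role, up to 4 of each of 3 marker lists by size, and the 5 genes nearest to C6 and to C1q. Further markers were named after their values were seen, to show those that went the other way or separated the groups. On arrays simulated for affected against control, with 42924 probe sets, limma recovered 25, 41, 43 and 46 of 50 changed by 1, 2, 3 and 4 log2 units, with 13 false calls. The simulated noise was independent for each probe set, with no shift common to an array, so these counts cannot be read as the recovery in the dog arrays. Gene order came from RefSeq for UU_Cfam_GSD_1.0.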

Additional observations from a re-analysis of the deposited data

How the results depend on the processing

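C6 and the terminal minus C1q difference kept their direction in all 14 alternatives each, at 4.31 to 6.30 and 1.91 to 2.87. Some of these alternatives could not move them. Sex and replicate number were balanced over the groups, so those terms left 5.42 and 2.34 unchanged. Median centring and subtraction of the actin and GAPDH controls cancel within an array, so they also left 2.34 unchanged. C6 was chosen with this contrast known. The C1q mean was 0.78 and turned to -0.18 with a term for affected 1 and affected 3, which leaves affected 2 against the 3 controls. With single dogs left out it ran from -0.14 to 1.49. C3 was 2.02 and turned to -0.69 with that term. Left-out dogs moved C3 between 1.18 and 3.37. For the marker lists, whose alternatives were added after seeing the data, the macrophage and adipocyte means turned to -0.091 and -0.094 with the same term, and with single dogs left out the adipocyte list ran from -0.25 to 0.65, the macrophage list from 0.04 to 0.92 and the fibroblast list from 0.53 to 1.17. No other complement probe set passed the adjusted limma threshold in any alternative. Over all probe sets 1 was called. The number was 6 without the 40% of smallest range, 91 with a range of at least 1, 46 after subtracting the actin and GAPDH controls, 0 after quantile normalization, 0 with age, 0 with the term for affected 1 and affected 3, and from 0 to 5 with single dogs left out (2 without control 1, 0 without control 2 or control 3, 1 without affected 1, 2 without affected 2 and 5 without affected 3). The cause was not tested. At an unadjusted limma p under 0.05, 41.8% of calls were higher, 68.5% after median centring and 85.7% after subtracting the actin and GAPDH controls. With a replicate block the call over all probe sets was also lost (0), and the C6 difference was 5.42. Same-numbered arrays correlated at 0.27, 0.15 and 0.02 in their deviations from the group mean. The numbers were not taken as pairs, since 1 of these lay near 0 and the labels tie no number to a shared source, although 5 of 6 arrays correlated best with their own number. Of the filters, none changes a gene's own difference.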

Other observations

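A pair of probe sets carries both the symbols C6 and MROH2B in the array annotation and entered no comparison. One read -0.42, -1.51 and -0.92 on the controls and 3.57, 0.42 and 3.52 on the affected arrays, a difference of 3.45 without overlap between the groups. The other read 0.16, -0.08 and 0.46 on the controls and -0.16, -0.26 and 0.08 on the affected arrays, a difference of -0.29. The probe set named for MROH2B alone had a range of 0.15 over the 6 arrays, against 5.08 for the first of the pair.

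Of the neutrophil markers, 5 of 6 were measured and the 2 calgranulins stood apart from the other 3. S100A9 and S100A8, which neutrophils and monocytes make, differed by -2.71 and -2.14, while MPO, CSF3R and ELANE differed by between -0.09 and -0.07, near the median of -0.08 over all probe sets. The list averaged 0.80, 0.23 and 0.79 on the controls and -0.26, -0.25 and -0.74 on the affected arrays (exact permutation test, two-sided, p = 0.1, the smallest that 3 against 3 dogs allow, adjusted p = 0.4 over 10 lists).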
